A study of Mus musculus with 10 samples.

Results

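Keratins are the intermediate filament proteins of epithelia and of hair, and the keratin genes of the mouse were followed here in fully grown oocytes that make, or lack, RNA interference against basonuclin (Bnc1). The members are the genes whose array annotation gives a single symbol made of Krt, a number and at most 1 letter. There are 48 of them among 18193 genes with a probe set of 1 symbol, measured by 61 probe sets. The genes were chosen by symbol, and the probe set of each gene was selected on its mean level over all 10 arrays, taking the brightest. Keratins were taken as the group to follow with earlier results of these data known. Members near the array floor were kept and counted. There were 6 samples from RNAi-transgenic mice (replicates 4, 5, 6, 11, 12 and 13) and 4 control samples from non-transgenic mice (replicates 1, 2, 7 and 8). Each held total RNA of about 50 oocytes at the germinal vesicle stage, taken from 1 mouse. The transgene lowers Bnc1 mRNA in oocytes only, and its promoter, the strain and the age of the mice are not given in the sources used here.

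A keratin filament is built from pairs of a type I and a type II keratin, and neither type forms filaments by itself. Type I genes lie together on chromosome 11 and type II genes on chromosome 15, where the type I gene Krt18 also lies, next to its partner Krt8. Epithelial keratins include those of the epidermis, of simple epithelia and of the inner root sheath that surrounds the growing hair, while hair keratins build the hair shaft. Basonuclin itself is known from keratinocytes and germ cells, and Krt8 and Krt18 are known as the first keratins of the trophectoderm, the outer cells of the early embryo. By this nomenclature the members are 25 type I and 23 type II keratins, or 35 epithelial and 13 hair keratins. Krt88 was counted as a hair keratin because of its place among hair keratin genes.

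Of the keratins, 10 were called higher in transgenic oocytes. The start regions of 6 of them are shown, 4 of the inner root sheath from both gene clusters, with Krt79 and Krt8, whose changes were large. Each line gives the 150 bases before the annotated start of the gene, 5′ to 3′ on the gene's strand, from RefSeq on GRCm38.p6, where all 6 genes lie on the minus strand. The windows are chr11:99322952-99323101 for Krt25, chr15:101743098-101743247 for Krt71, chr15:101786521-101786670 for Krt72, chr15:101802361-101802510 for Krt73, chr15:101940325-101940474 for Krt79 and chr15:102004343-102004492 for Krt8. Capitals mark the TATA box motif TATAAA.
Krt25: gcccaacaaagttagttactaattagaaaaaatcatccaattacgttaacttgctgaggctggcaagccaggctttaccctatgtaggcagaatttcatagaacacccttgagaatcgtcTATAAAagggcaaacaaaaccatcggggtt
Krt71: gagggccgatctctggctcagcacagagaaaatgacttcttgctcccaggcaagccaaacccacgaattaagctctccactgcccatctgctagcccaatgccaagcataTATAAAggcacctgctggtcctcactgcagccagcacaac
Krt72: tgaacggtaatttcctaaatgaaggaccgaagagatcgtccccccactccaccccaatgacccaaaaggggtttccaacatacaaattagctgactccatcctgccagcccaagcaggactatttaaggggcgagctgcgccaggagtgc
Krt73: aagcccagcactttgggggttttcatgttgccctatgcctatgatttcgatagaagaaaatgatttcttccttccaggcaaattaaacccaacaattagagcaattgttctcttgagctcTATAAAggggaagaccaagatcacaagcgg
Krt79: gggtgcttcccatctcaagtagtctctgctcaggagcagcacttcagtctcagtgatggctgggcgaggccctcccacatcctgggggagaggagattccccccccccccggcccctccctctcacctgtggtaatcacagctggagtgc
Krt8: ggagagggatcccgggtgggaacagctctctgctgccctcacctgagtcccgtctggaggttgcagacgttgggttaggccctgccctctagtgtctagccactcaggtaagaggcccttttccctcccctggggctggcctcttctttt

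Start regions were found for 32 of the 48 keratins and 8 of the 10 that rose, with Krt35 and Krt80 not among them. TATAAA, searched on both strands, was present in 5 of these 8 windows, those of Krt25, Krt27, Krt71, Krt73 and Krt76, as against 14 of all 33 keratin windows (Krt13 has more than 1 start) and 7.57% of 32851 windows of the same length in the mouse table. The motif began 30 bases before the start in Krt25 and Krt73, and 40 bases before it in Krt71. Of the other motifs searched on both strands, the GC box GGGCGG, the AP-2 motif GCCNNNGGC and the AP-1 motif TGANTCA were in 0 of the 8 windows, and in 28.6%, 9.61% and 4.24% of all windows. The LEF1 motif CTTTGA was in 1 of the 8, that of Krt76, and in 7.93% of all windows. In these 8 windows no match of 1 motif overlapped a match of another. These are letter matches in a short window, and they show no binding.

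The samples carried the oocyte identity and the genotype of their labels. Of 11 oocyte markers on the array all 11 were above the filter level described next, with Zp3 of the egg coat at log2 14.59 in transgenic and 14.61 in non-transgenic oocytes. Of the 11, 2 were lower in transgenic oocytes. Figla, a factor of oocyte gene expression, had a log2 change of -0.54 (limma adjusted p = 0.0153), and the maternal factor Dppa3 one of -0.21 (adjusted p = 0.0265). Over all genes tested 18.3% were called lower, so 2 of 11 is near that share. Bnc1 was at log2 3.85 ± 0.21 (SD, n = 6) in transgenic and 11.57 ± 0.15 (SD, n = 4) in non-transgenic oocytes, and was at least 95.1-fold lower (limma adjusted p = 2.65e-11). As a sign of RNA quality, the 3′ minus 5′ log2 difference of the beta-actin control probe sets was 3.40 to 5.13 in transgenic samples, highest in replicate 6, and 3.44 to 4.01 in non-transgenic samples. For Gapdh it was 3.63 to 4.12 in transgenic and 3.72 to 4.34 in non-transgenic samples, highest in non-transgenic replicate 8. For pyruvate carboxylase it was 3.43 to 3.92 in transgenic and 3.60 to 4.04 in non-transgenic samples. For the transferrin receptor it was -0.36 to -0.25 in transgenic and -0.40 to -0.30 in non-transgenic samples. Between 40.1% and 40.9% of all probe sets were above the filter level on each array. Levels are log2 of the deposited intensity, each probe set has its own scale, and the levels of different keratins are therefore not ranked against each other. In RNA pooled from many oocytes, more RNA per oocyte and more oocytes with the RNA cannot be told apart.

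Of the 48 keratins, 19 were above log2 5, an intensity of 32, on at least 4 arrays and were tested among 10590 genes with limma, which compares groups for all genes in 1 model. At a Benjamini-Hochberg adjusted p below 0.05, 10 of the 19 were higher in transgenic oocytes, 1 was lower and 8 did not pass. Among all genes tested 37.2% were called in either direction, 18.9% higher and 18.3% lower. By at least 2-fold, 7 of the 19 keratins were called higher and none lower, the most negative keratin change being -0.35, while 6.63% of all genes were called higher and 2.35% lower by that much. For 11 of the 19 the groups did not overlap, which held for 28.0% of all genes. The median log2 change was 0.46 over the tested keratins and -0.03 over all genes tested.

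The filter bears on these counts. Krt27, Krt35 and Krt80 had no non-transgenic sample above the level and entered the test only because transgenic samples lay above it. Krt79, Krt76, Krt8 and Krt36 had 1, 2, 3 and 3 non-transgenic samples above it, short of the 4 arrays needed. They too entered only with the help of transgenic samples. Such entry favours a call of higher without fixing it, and Krt36 did not pass. Of the 12 keratins above the level on all 10 arrays, 4 were higher (Krt25, Krt71, Krt72 and Krt73), 1 was lower (Krt12) and 7 did not pass. Of the 7 that were below it on some array, 6 were higher (Krt8, Krt27, Krt35, Krt76, Krt79 and Krt80) and 1, Krt36, did not pass. Over all genes tested 18.9% were called higher and 18.3% lower. These shares were not worked out apart for genes above the level on all 10 arrays and for the rest. Whether 4 of 12 or 6 of 7 stands out from like genes is therefore not known. Just inside the filter, Krt27 was above the level on 4 arrays, and just outside, Krt77 was above it on 2, those of transgenic replicate 6 and non-transgenic replicate 1.

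**Figure D1:**
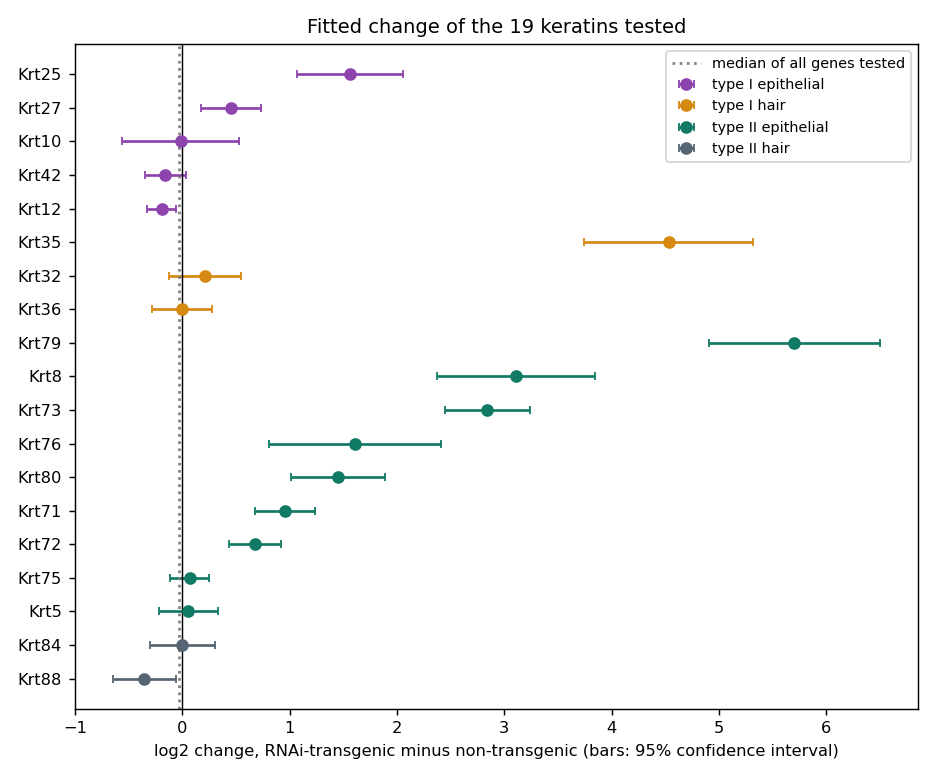
Fitted log2 change, RNAi-transgenic minus non-transgenic, of the 19 keratins tested, with 95% confidence intervals from limma (6 against 4 samples), coloured by class. The 7 type II epithelial keratins Krt79, Krt8, Krt73, Krt76, Krt80, Krt71 and Krt72 lie right of 0, while Krt35 is the only hair keratin whose interval lies wholly right of 0. For Krt79, Krt8, Krt76, Krt80, Krt35 and Krt27 the fit used non-transgenic values below the filter level, so their plotted sizes are not measured folds. Krt36, which did not pass, also had a non-transgenic value below that level, at log2 4.84 in replicate 8.

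Markers of other cells were set beside the keratins. Over all genes tested 18.9% were called higher and 18.3% lower. Of 19 markers of stratified epidermis 7 were tested, and 3 rose: Tgm1, which crosslinks the cornified envelope (at least 4.16-fold, limma adjusted p = 5.21e-10), the envelope protein Sprr1a (at least 4.40-fold, adjusted p = 5.50e-06) and the desmosomal cadherin Dsg1a (at least 3.96-fold, adjusted p = 3.33e-06). Tgm1, Dsg1a and Sprr1a had 0, 2 and 3 non-transgenic samples above the level. Each was tested only with the help of transgenic samples, which favours a call of higher. Sbsn of that list fell by 0.64 on the log2 scale (adjusted p = 0.0187), and 11 were below the level on all 10 arrays, among them the defining genes Flg and Ivl. The median log2 change of the 7 tested was 0.32. The summed intensity of that list was 1454 to 1756 in transgenic and 1159 to 1744 in non-transgenic samples. Its brightest member was Sbsn, at log2 8.74 in transgenic and 9.38 in non-transgenic oocytes.

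Of 17 granulosa and cumulus markers on the array 9 were tested and 2 rose, the hormone receptor Fshr and the steroid enzyme Cyp11a1 (limma adjusted p = 0.00481 and 0.0232). With 18.9% of all genes tested called higher, 2 of 9 is near that share. At an unadjusted limma p below 0.05, 4 of the 9 were higher and 0 lower. The median log2 change of the 9 was 0.55, against -0.03 over all genes tested. Amh, Nr5a1 and Star were among the markers below the level on all 10 arrays. The summed intensity of the 17 was 1832 to 3002 in transgenic and 1851 to 2105 in non-transgenic samples. Their brightest member was Nr5a2, at log2 9.87 in transgenic and 9.94 in non-transgenic oocytes, which did not pass (limma adjusted p = 0.669). Of 12 markers of ovarian surface epithelium 6 were tested, 3 rose (Lhx2, Cdh1 and Upk3b) and 1 fell (Gpm6a), with Msln and Muc16 below the level on all 10 arrays. The median log2 change of the 6 was 0.20. Their summed intensity was 14357 to 16110 in transgenic and 9515 to 12892 in non-transgenic samples. Cdh1 carried most of that sum, with an intensity of 12634 to 14224 in transgenic and 7339 to 10794 in non-transgenic samples. Without Cdh1 the sum was 1723 to 2074 in transgenic and 1760 to 2214 in non-transgenic samples, and the groups overlapped. Of 13 markers of stroma, vessels and blood on the array 4 were tested, 3 rose (Kdr, Dcn and Laptm5) and 1 fell (Acta2). The median log2 change of the 4 was 1.08. Of the 13 markers 8 had no array above the level, Col1a2, Pecam1 and Ptprc among them. The summed intensity of the 13 was 939 to 1527 in transgenic and 486 to 1089 in non-transgenic samples. The brightest of them was Laptm5, at log2 9.61 in transgenic and 8.54 in non-transgenic oocytes. Cyp11a1, Upk3b and Dcn each had only 3 non-transgenic samples above the level. They were tested only with the help of transgenic samples, which favours a call of higher. Inha and Inhbb of the granulosa list entered in the same way and did not pass. Each summed intensity leans on its brightest members and is no measure of the amount of other cells. The part of other cells in the keratin result was not tested.

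By type, 7 of 11 tested type II keratins and 3 of 8 tested type I keratins rose. By tissue, 9 of 14 tested epithelial keratins rose, against 1 of 5 tested hair keratins. Over all genes tested 18.9% were called higher, and the hair keratin count is near that share. The median log2 change was 0.96 for type II and 0.11 for type I keratins, and 0.82 for epithelial and 0.00 for hair keratins. The classes hold few members, some of which passed the filter in only one group, and the difference between classes was not tested. Of the 8 keratins of the inner root sheath and companion layer, 5 rose, 1 did not pass and 2 were below the filter.

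On chromosome 15 the inner root sheath keratins Krt71, Krt72 and Krt73 rose, and on chromosome 11 Krt25 and, close to the filter level, Krt27 were called higher. Krt73, a type II keratin of the inner root sheath cuticle, was at log2 9.12 (lowest), 9.68 (median) and 10.13 (highest) in the 6 transgenic samples, against 6.73, 6.73, 6.65 and 6.88 in non-transgenic replicates 1, 2, 7 and 8. The lowest transgenic sample lay well above the highest non-transgenic sample, and the 4 non-transgenic values lay close together. Krt73 was 7.17-fold higher (log2 change 2.84, SE 0.18, limma adjusted p = 4.78e-07).

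Krt25, a type I keratin of the inner root sheath, was at log2 8.50 (lowest), 9.49 (median) and 9.70 (highest) in transgenic samples, against 7.75, 7.85, 7.43 and 8.03 in non-transgenic replicates 1, 2, 7 and 8. Transgenic replicate 5 was the lowest of its group and still lay above every non-transgenic sample. It was 2.96-fold higher (log2 change 1.56, SE 0.22, limma adjusted p = 0.000285).

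Krt71, a type II keratin of all inner root sheath layers, was at log2 7.47 (lowest), 7.67 (median) and 8.11 (highest) in transgenic samples. In non-transgenic replicates 1, 2, 7 and 8 it was at 6.86, 6.68, 6.70 and 6.77, and the groups did not overlap. Its log2 change was 0.96 (SE 0.13, limma adjusted p = 0.000147). Krt72, a type II keratin of the inner root sheath cuticle, was at log2 7.92 (lowest), 8.02 (median) and 8.30 (highest) in transgenic samples, against 7.65, 7.26, 7.28 and 7.28 in non-transgenic replicates 1, 2, 7 and 8. Non-transgenic replicate 1 stood above the other 3 of its group without reaching the transgenic samples. The log2 change of Krt72 was 0.68 (SE 0.11, limma adjusted p = 0.000674), and within the samples numbered 1 to 6 it was 0.57 and did not pass (adjusted p = 0.0699).

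Krt27, another type I keratin of the inner root sheath, lay at the filter level. It was at log2 4.76 (lowest), 5.05 (median) and 5.28 (highest) in transgenic samples, against 4.73, 4.56, 4.30 and 4.73 in non-transgenic replicates 1, 2, 7 and 8. The groups were separated by a narrow gap, and against the filter level the fold was at least 1.03 (limma adjusted p = 0.0161). Its call was lost without non-transgenic replicate 7 (adjusted p = 0.0509), after median centring (adjusted p = 0.0512) and within the samples numbered 7 to 13 (adjusted p = 0.176). Krt26 and Krt28, the other type I keratins of the inner root sheath, were below the level on all 10 arrays. Krt75, the companion layer keratin, was at log2 6.30 ± 0.11 in transgenic and 6.23 ± 0.07 in non-transgenic oocytes (SD, n = 6 and 4), and did not pass (limma adjusted p = 0.548).

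**Figure D2:**
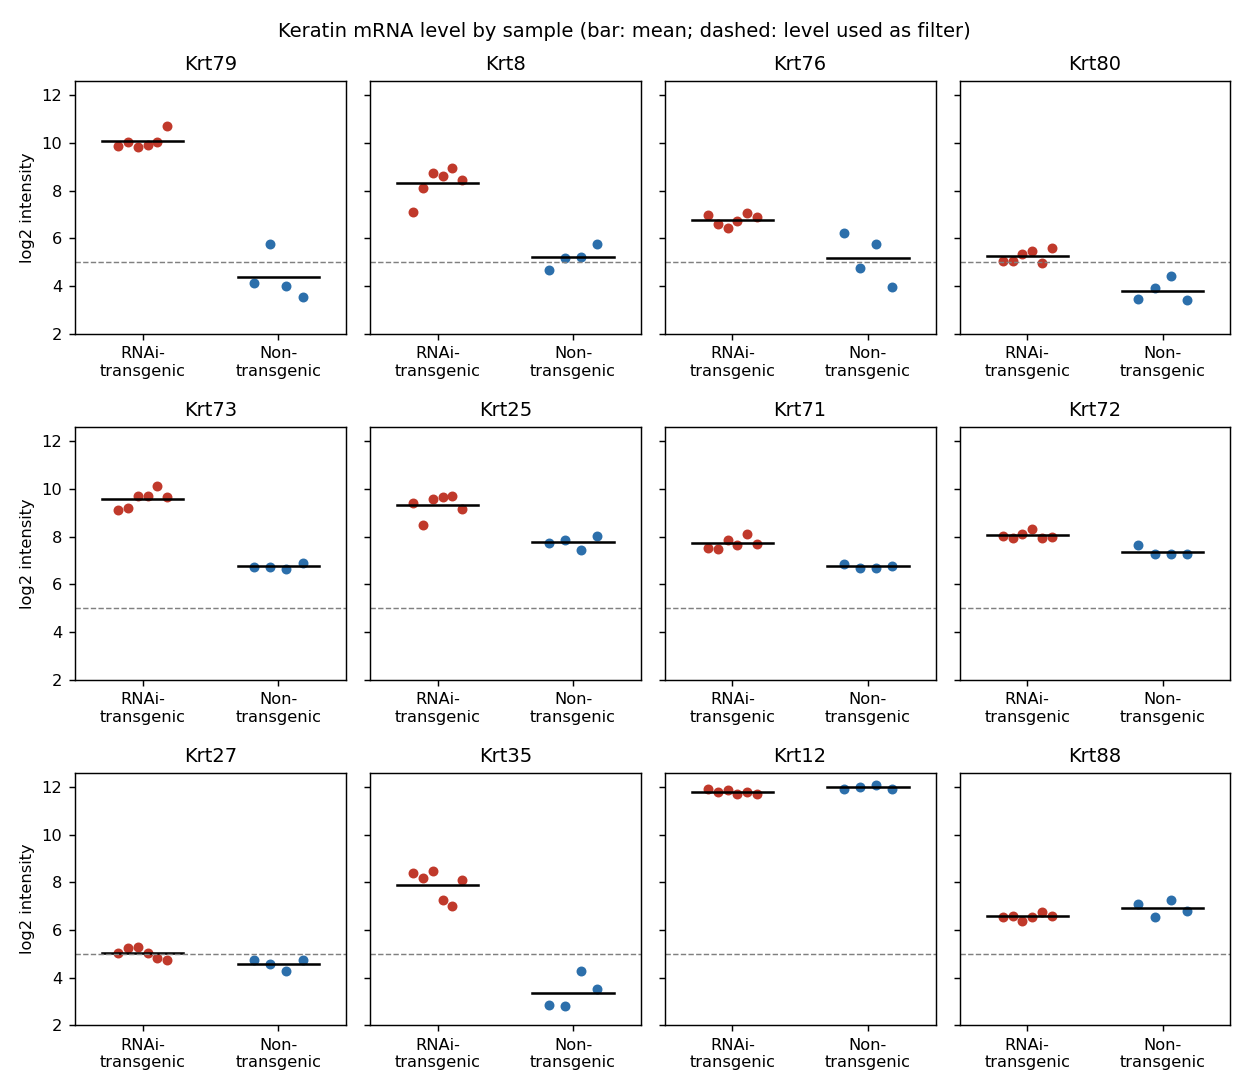
Log2 intensity of 12 keratins in each of the 6 RNAi-transgenic (left, red) and 4 non-transgenic (right, blue) samples, with the group mean as a bar and the filter level of log2 5 as a dashed line. The 10 that rose show no overlap between groups, Krt12 differs by a small step at a high level, and Krt88 overlaps.

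Among the other epithelial keratins, Krt79 changed most. Krt79, a type II keratin of the upper hair follicle and of the duct of the sebaceous gland, was at log2 9.82 (lowest), 9.97 (median) and 10.72 (highest) in transgenic samples, against 4.13, 5.77, 4.01 and 3.56 in non-transgenic replicates 1, 2, 7 and 8. Every transgenic sample was bright and only non-transgenic replicate 2 was above the filter level in its group. Krt79 was at least 29.4-fold higher. The limma adjusted p was 5.24e-07, from a fit that took the values below the level as deposited, so the size is given only as this bound. Its chromosomal neighbours on both sides, Krt4 of oral and oesophageal epithelium and Krt78, were below the level on all 10 arrays.

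Krt8, the type II keratin of simple epithelia and trophectoderm, was at log2 7.10 (lowest), 8.54 (median) and 8.94 (highest) in transgenic samples, against 4.68, 5.17, 5.22 and 5.78 in non-transgenic replicates 1, 2, 7 and 8. Transgenic replicate 4 was the lowest of its group, and the groups did not overlap. Krt8 was at least 8.18-fold higher (log2 change 3.11, SE 0.33, limma adjusted p = 3.39e-05), with 3 of 4 non-transgenic samples above the level. Its 2 other probe sets were also higher in transgenic samples, each with no overlap between groups (exact permutation p = 0.00476, the smallest that 210 splits allow). By their array names, the brightest and the dimmest set of Krt8 hold probes that may match other transcripts. The RefSeq table also lists a Krt8 pseudogene on chromosome 7, and whether it reaches these probes was not tested.

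Krt18, the type I partner of Krt8 and its neighbour on chromosome 15, did not reach the filter level on any array. It was at log2 3.46 (lowest), 3.60 (median) and 4.21 (highest) in transgenic samples, against 3.57, 3.25, 2.90 and 3.10 in non-transgenic replicates 1, 2, 7 and 8. The groups overlapped, since non-transgenic replicate 1 lay above the lowest transgenic samples, and with no filter at all its difference of 0.49 just passed (limma adjusted p = 0.0467). Of the other keratins listed for simple epithelia, Krt80 was called higher, and Krt7, Krt19, Krt20 and Krt23 were below the level on all 10 arrays, with group means between log2 2.15 (Krt19 in transgenic) and 3.73 (Krt23 in transgenic oocytes).

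**Figure D3:**
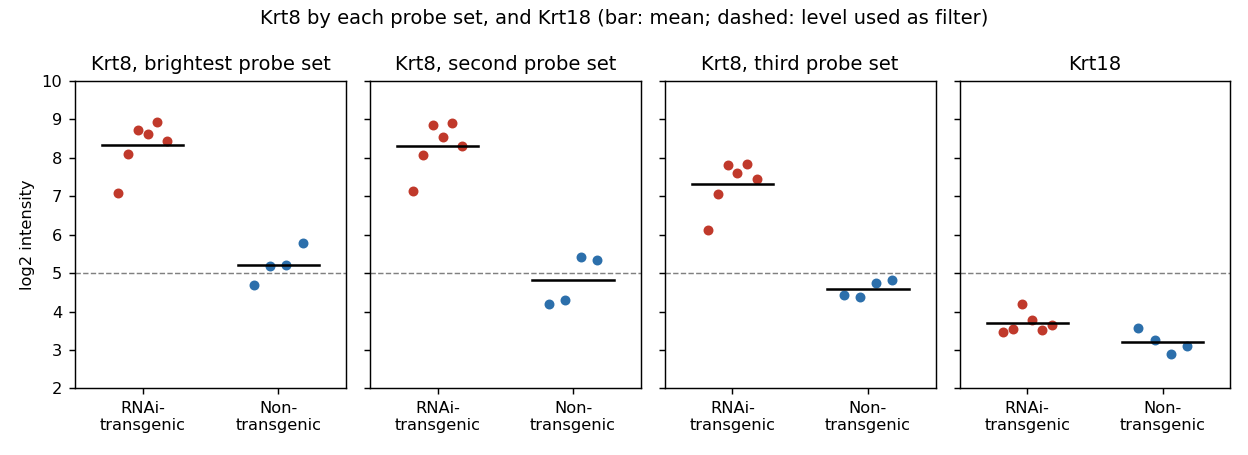
Log2 intensity of Krt8 by each of its 3 probe sets, and of Krt18, in RNAi-transgenic (left, red) and non-transgenic (right, blue) samples, with group means as bars and the filter level as a dashed line. All 3 Krt8 probe sets separate the groups, while Krt18 stays under the level in all samples.

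Krt76, a type II keratin of the palate and other oral epithelia, was at log2 6.45 (lowest), 6.82 (median) and 7.06 (highest) in transgenic samples, against 6.25, 4.75, 5.76 and 3.97 in non-transgenic replicates 1, 2, 7 and 8. The non-transgenic samples were spread widely, from near the transgenic range to below the level, which 2 of 4 passed. It was at least 2.44-fold higher (limma adjusted p = 0.00533), and among the samples numbered 1 to 6 the difference of 1.19 did not pass (adjusted p = 0.132). By its array name, the only probe set of Krt76 holds probes that may match other transcripts. Krt80, a type II keratin known from cell margins in many epithelia, was at log2 4.98 (lowest), 5.22 (median) and 5.60 (highest) in transgenic samples, against 3.46, 3.92, 4.42 and 3.42 in non-transgenic replicates 1, 2, 7 and 8. The groups did not overlap and all non-transgenic values lay below the filter level, so its fold is given as at least 1.19 (limma adjusted p = 0.000202).

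Krt12, the type I keratin of the corneal epithelium, was the only keratin called lower. Its brightest probe set was at log2 11.71 (lowest), 11.77 (median) and 11.90 (highest) in transgenic samples, against 11.93, 12.01, 12.08 and 11.90 in non-transgenic replicates 1, 2, 7 and 8. The change was small and the gap between groups narrower than the spread within either, at -0.19 (SE 0.06, limma adjusted p = 0.0302). The call was lost without any 1 of transgenic replicates 5, 11, 12 and 13 or of non-transgenic replicates 2 and 7, with adjusted p from 0.0502 to 0.0875. A dimmer probe set of Krt12 was at 7.81 ± 0.06 in transgenic and 8.36 ± 0.22 in non-transgenic oocytes (SD, n = 6 and 4), a difference of -0.54 with no overlap (limma adjusted p = 0.00206 with each probe set tested by itself). By its array name, the probes of the brightest set match several transcripts.

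The remaining tested epithelial keratins did not pass. Krt10 of the suprabasal epidermis was at log2 9.25 ± 0.45 in transgenic and 9.27 ± 0.41 in non-transgenic oocytes (SD, n = 6 and 4), with a 95% interval of the log2 change from -0.56 to 0.53. Krt5 of the basal epidermis was at 5.96 ± 0.24 in transgenic and 5.90 ± 0.10 in non-transgenic oocytes (interval -0.22 to 0.34), and its partner Krt14 was below the level on all 10 arrays. Krt42 was at 7.75 ± 0.11 in transgenic and 7.91 ± 0.08 in non-transgenic oocytes (limma adjusted p = 0.187). Its dimmer probe set moved the other way, with a difference of 0.28 (adjusted p = 0.0553 with each probe set tested by itself), so its probe sets disagree in sign and no direction is given. By its array name, the brighter set of Krt42 holds probes that may match other transcripts. The epidermal keratins Krt1, Krt2, Krt6a, Krt6b, Krt15, Krt16 and Krt17 were below the level on all 10 arrays.

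Of the hair keratins, Krt35 rose and the 4 others tested did not pass. Krt35, a type I keratin of the hair matrix and cortex, was at log2 7.00 (lowest), 8.13 (median) and 8.46 (highest) in transgenic samples, against 2.86, 2.82, 4.26 and 3.53 in non-transgenic replicates 1, 2, 7 and 8. All transgenic samples were above the level and all non-transgenic samples below it, and transgenic replicates 11 and 12 were the lowest of their group. The fold is given as at least 7.45 (limma adjusted p = 3.20e-06). Krt32 of the hair cuticle and Krt36 of tongue and nail, which flank Krt35 on chromosome 11, were at 6.01 ± 0.28 and 5.25 ± 0.07 in transgenic oocytes (SD, n = 6). In non-transgenic oocytes they were at 5.80 ± 0.21 and 5.25 ± 0.33 (SD, n = 4), and neither passed (limma adjusted p = 0.302 and 0.996).

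Krt84, a type II keratin of tongue and nail, was at log2 7.99 ± 0.21 in transgenic and 7.99 ± 0.23 in non-transgenic oocytes (SD, n = 6 and 4), with an interval of the log2 change from -0.30 to 0.30. Krt88 was at 6.57 ± 0.12 in transgenic and 6.92 ± 0.31 in non-transgenic oocytes (SD, n = 6 and 4), a change of -0.35 that did not pass (limma adjusted p = 0.0572). It passed without non-transgenic replicate 2 (adjusted p = 0.014), after quantile normalization (adjusted p = 0.019) and after median centring (adjusted p = 0.0236). The hair keratins Krt31, Krt33a, Krt33b, Krt34, Krt81, Krt82, Krt83 and Krt86 were below the level on all 10 arrays.

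In all, 29 keratins did not pass the filter and 28 of them had no array above the level. Besides those named, these were Krt13 and Krt24, which are type I epithelial keratins, and the type I gene Krt222. Values of the 29 lay between log2 1.72 and 5.25, and for 22 of them the 10 arrays spanned less than 0.5. The difference between groups over the 29 was between -0.20 and 0.49, the highest being Krt18. These values lie near the floor of the array and do not show whether a transcript is absent.

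The keratins that rose had neighbours of several kinds along the chromosomes. On chromosome 15, Krt71, Krt72 and Krt73 lie next to each other apart from Krt74, which was not analysed here, and all 3 rose. Krt5 on one side of that run did not pass and Krt2 on the other was below the level. On chromosome 11, Krt25 and Krt27 rose, and Krt24, Krt26 and Krt28 beside and between them were below the level. Beyond the ends of the keratin clusters, Eif4b, a translation factor gene beside Krt18, was at -0.09 on the log2 change scale (limma adjusted p = 0.276), and Smarce1, a chromatin remodelling gene beside Krt222, was at -0.26 (adjusted p = 0.164). Tns2, the next gene after Eif4b, fell by 0.55 (adjusted p = 0.00632). Gast, the gastrin gene near Krt42, was called higher (adjusted p = 0.0135), with 5 transgenic and 0 non-transgenic samples above the level, so it was tested only through the transgenic samples.

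**Figure D4:**
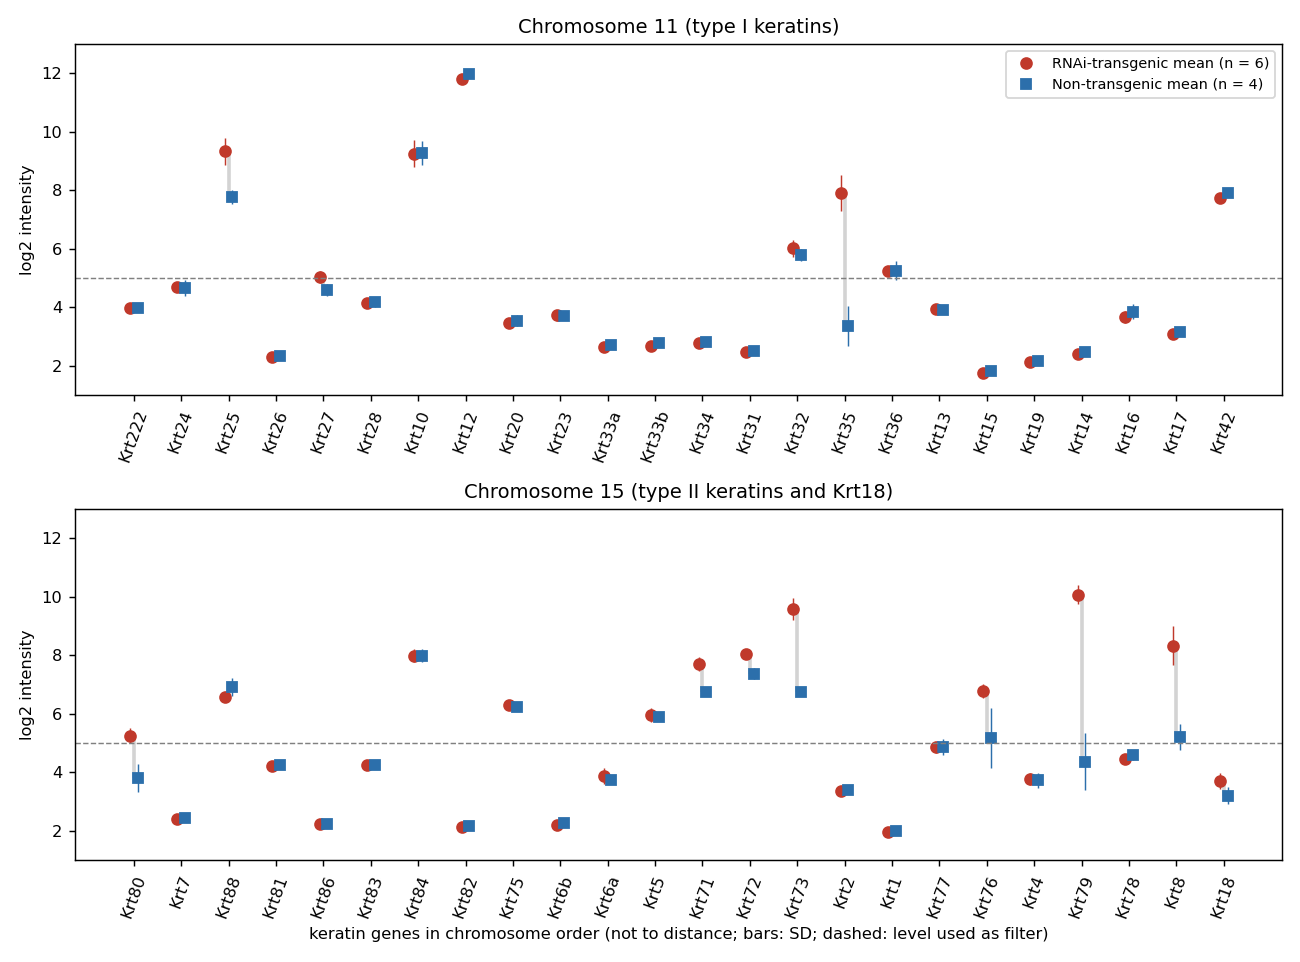
Mean log2 intensity of all 48 keratins in the order of their genes on chromosomes 11 and 15, for RNAi-transgenic (red circles, n = 6) and non-transgenic (blue squares, n = 4) oocytes, with SD bars and the filter level as a dashed line. Grey lines join the group means and are longest at Krt79, Krt35, Krt8 and Krt73, while most neighbours sit at the same low level in both groups.

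The proteins that keratins work with were read from lists of known genes. Over all genes tested 18.9% were called higher and 18.3% lower. Of 16 genes of other intermediate filaments, 9 were tested. In limma 0 of the 9 rose (1 at an unadjusted p below 0.05) and 2 fell, with a median log2 change of 0.11. These were Nefh, a neurofilament gene, which fell by 0.69 (adjusted p = 0.0194), and Lmna, the gene of nuclear lamins A and C, which fell by 0.48 (adjusted p = 0.0473). Vim, the gene of the filament protein vimentin, was below the level on all 10 arrays.

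Of 31 genes for linkers and partners of keratin filaments, such as the desmosome proteins, 18 were tested. Of these 2 rose and 2 fell, with a median log2 change of 0.03, where 18.9% of all genes tested were called higher and 18.3% lower. Perp, a desmosome-associated membrane protein, rose by 1.64 (limma adjusted p = 2.19e-05), and Krtcap3 rose by 0.37 (adjusted p = 0.0107). Pkp2, a desmosomal plaque protein, fell by 0.84 (adjusted p = 0.00194), and Plec, which links filaments to junctions, fell by 0.28 (adjusted p = 0.025). Of 38 genes for keratin-associated proteins of the hair shaft, 5 were tested and 1 rose, while 32 had no array above the level. The 1 was Krtap4-6, at log2 9.20 ± 0.98 in transgenic and 6.96 ± 0.37 in non-transgenic oocytes (SD, n = 6 and 4, limma adjusted p = 0.00253).

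Of 30 genes known as regulators of keratin genes, 21 were tested, and 9 rose and 2 fell, with a median log2 change of 0.21, where 18.9% of all genes tested were called higher and 18.3% lower. The list was chosen with earlier results of these data known. Cdx2, among the 9, had 1 non-transgenic sample above the level, and Ovol1, which did not pass, had 0. Both were tested only with the help of transgenic samples, which favours a call of higher. The epithelial factor Elf3 was at log2 11.02 in transgenic and 6.39 in non-transgenic oocytes (limma adjusted p = 1.07e-07), and the AP-2 factor Tfap2a at 9.22 in transgenic and 6.48 in non-transgenic oocytes (adjusted p = 1.12e-07). Gata3, a factor of the inner root sheath and of trophectoderm, was at 8.69 in transgenic and 6.44 in non-transgenic oocytes (adjusted p = 1.07e-07). Klf4, an epithelial barrier factor, was at 10.04 in transgenic and 7.08 in non-transgenic oocytes (adjusted p = 1.88e-06). The 2 that fell were Nfe2l2, an oxidative stress factor, by 0.73 (adjusted p = 0.0118), and Bnc1 itself, the target of the RNA interference. Trp63, the epidermal p63 gene, was at 7.73 in transgenic and 7.52 in non-transgenic oocytes and did not pass (adjusted p = 0.608).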

How the data were processed

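Total RNA of 10 oocyte samples was measured on Affymetrix-type probe set arrays. The deposited values are intensities on a linear scale, made by the authors with GCRMA, a background correction and summary method for probe sets, per the submitters' processing notes and with no version named there. The deposited table holds 45101 probe sets, of which 34945 have 1 gene in the platform annotation, 932 have several and 9160 are not listed. Log2 was taken, probe sets above log2 5 on at least 4 arrays were kept, and each gene was represented by its brightest such set. For keratins that passed on no set, the brightest of all was used. The 10590 genes were compared, 6 samples against 4, with limma 3.58.1 (lmFit, eBayes with trend) in R 4.3.3, with Benjamini-Hochberg adjustment over all genes at a threshold of 0.05. The fit was first tested on simulated data.

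Where samples of the dimmer group were below log2 5, they were set to 5 and the fold is given as "at least". Single values used an exact two-sided permutation test over 210 splits. Each sample is 1 mouse, and the number of arrays limits the precision. Alternatives covered scaling, filter, pseudocount, probe set choice, variance model, sample number ranges and left-out samples, and leaving out transgenic replicate 6 with non-transgenic replicate 1 was added after seeing the data. The keratins and gene lists were chosen with earlier results of these data known. All tested keratins are named, and of each other list at most 4 members in each direction by adjusted p. Cdx2 is named besides these because of how it passed the filter. Start regions came from RefSeq (GRCm38.p6). Krt9, Krt39, Krt40, Krt74, Krt87 and Krt90 were not analysed here, and a probe set listed for both Krt14 and Krt17 was left out.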

Additional observations from a re-analysis of the deposited data

Results flagged for a closer look

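In 3 of 38 groups of keratin values, each keratin tested in each genotype, 1 sample lay far from the rest of its group by Dixon's criterion, and chance alone flags about 1 in 20 groups. Krt79 was highest in transgenic replicate 13, at log2 10.72. Krt5 was highest in transgenic replicate 12, at 6.43. Krt72 was highest in non-transgenic replicate 1, at 7.65.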

How the results depend on the processing

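Krt8, Krt25, Krt35, Krt71, Krt73, Krt79 and Krt80 were called higher under every alternative run in which they were tested, except that Krt71 missed a 2-fold minimum. The number of keratins higher, 10 as reported, was 7 with a filter level of log2 7 and with a 2-fold minimum, and 11 with no filter. It was 9 after median centring, 8 in the samples numbered 1 to 6 and 9 in those numbered 7 to 13. Leaving out each sample in turn gave 9 to 10. The number lower, 1 as reported (Krt12), was 2 after quantile normalization and after median centring, and 0 in the samples numbered 1 to 6, in those numbered 7 to 13 and with a 2-fold minimum. It was 0 to 1 when leaving out each sample in turn. With each probe set by itself, 12 keratin probe sets were called higher, 3 of them of Krt8, and 2 lower, both of Krt12, so that 10 keratins were higher and 1 lower as before. Over all genes, the number higher (1998 as reported) was 1207 in the samples numbered 1 to 6, 1241 in those numbered 7 to 13, 702 with a 2-fold minimum, and 1778 to 1954 when leaving out each sample in turn. The number lower (1942 as reported) was 706 in the samples numbered 1 to 6, 1023 in those numbered 7 to 13, 249 with a 2-fold minimum, and 1564 to 1913 when leaving out each sample in turn. The subsets hold fewer samples and the fold minimum is stricter by construction. The cause of the other differences was not tested. Without transgenic replicate 6 and non-transgenic replicate 1 together, 10 keratins were higher and 1 lower. No paired analysis was possible because the groups share no replicate numbers. Signal near the array floor limits what can be said of the 29 keratins not tested.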
